A study of Mus musculus with 20 samples.

Results

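The 100 array spots described here had lower signal in the lungs of irradiated mice than in unirradiated mice on both of the diets used, out of 9600 spots measured. They were chosen from measured values. For each spot, the signal after subtraction of its local background was expressed as a percent of the array's median subtracted signal, floored at 0, raised by 50 and put on the log2 scale. The mean of the irradiated mice minus the mean of the untreated mice gave the radiation difference without flaxseed. The mean of the mice given flaxseed and radiation minus the mean of the mice given flaxseed gave the radiation difference on flaxseed. The 100 spots whose weaker difference was most negative are the members, and they are ranked by it. Because both radiation differences chose the members, their low values are given as a description, with no test.

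Lung RNA came from 20 C57BL/6 mice, an inbred laboratory strain, and was measured on MA11 arrays, 1 array per mouse with radioactive 33P labelling of the RNA. The 4 groups held 5 mice each. Untreated mice received neither agent, mice of the flaxseed group ate food with 10% flaxseed for 21 days, mice of the radiation group received 13.5 Gy to the thorax and were killed 48 h later, and mice of the last group received both the diet and the dose. The comparisons address what the dose does to lung expression and whether the diet alters it. The labels give no age, sex, sham treatment or batch, and all mice were of the same strain.

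Ionising radiation breaks DNA, and cells respond through p53 by halting division or dying. Lymphocytes and dividing cells are among the most sensitive cells of the lung, and the days after a dose precede the inflammation known as radiation pneumonitis. Flaxseed is rich in lignans and in the omega-3 fatty acid alpha-linolenic acid, and has been studied as a dietary radioprotector. The spots carry running numbers only, 0 of which matched a reference gene, so no gene, pathway, cell type or sequence can be attached to a member, and the tissue label could not be checked against marker genes. In RNA of a whole lung, fewer cells of a type and less RNA per cell cannot be told apart.

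The arrays differed in brightness before scaling. The median subtracted signal lay between 84.6 and 184 intensity units on the 20 arrays, and was 172 ± 12.7 in the flaxseed group against 112 to 125 as the means of the other groups (SD, n = 5). The mean over all spots on the members' log2 scale was 7.57 ± 0.01 in untreated mice and 7.52 ± 0.03 on flaxseed. It was 7.56 ± 0.03 after radiation and 7.60 ± 0.03 after both (SD, n = 5 each). The flaxseed arrays, at 7.47 to 7.54, lay wholly below the untreated arrays, at 7.56 to 7.59, and the doubly treated arrays, at 7.57 to 7.64. The part of this offset in the differences that use the flaxseed group was not tested. Differences on this scale are relative to the median spot of each array.

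As a set, the members separated irradiated from unirradiated mice. Their mean log2 level was 9.32 ± 0.12 in untreated mice and 8.72 ± 0.10 after radiation alone. It was 9.46 ± 0.14 on flaxseed and 8.83 ± 0.15 after both treatments (SD, n = 5 each). The lowest unirradiated mouse had 9.17 and the highest irradiated mouse had 9.00, which is a separation that the choice of members fixes. The median member had a radiation difference of -0.43 without flaxseed and -0.47 on flaxseed, against 0.00 and 0.01 over all 9600 spots.

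The members ranged from deep to shallow differences. Of the members, 27 were at or below -0.50 on both diets, and no other spot reached that, whereas 10 spots were at or above 0.50 on both. At the edge of the list, the last member, ranked 100, had -0.29 without flaxseed and -0.50 on flaxseed. The first spot outside, ranked 101, had -0.57 and -0.29, so the border falls in a continuous run of values. Over all spots, 2354 were below 0 on both diets and 2626 above 0 on both. In the opposite direction, 139 spots were higher by at least the size of the border on both diets.

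**Figure D1:**
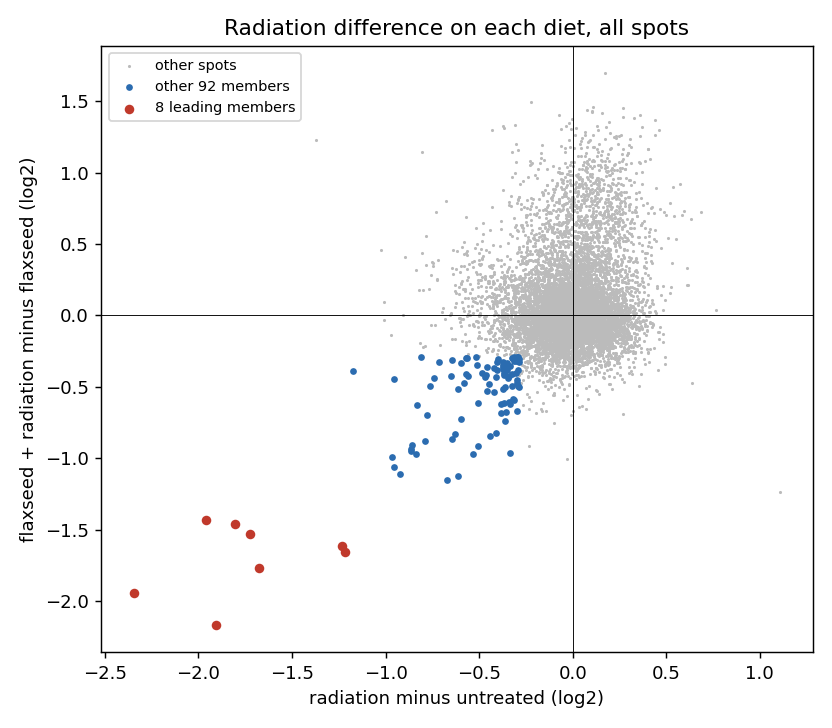
Each point is 1 spot. The horizontal axis is the radiation difference without flaxseed and the vertical axis the radiation difference on flaxseed, both in log2 units of the scaled signal plus 50. The 8 leading members in red lie at or below -1 on both axes, where no other spot lies, and the other 92 members in blue fill the corner down from the border at -0.29.

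The 8 members of lowest rank, called the leading members here, stood below the rest. The largest gap in the ranked values, 0.25, came after rank 8, from -1.22 to -0.96. Gaps nearly as large came after rank 2, at 0.23, and after rank 6, at 0.20. These 8 were the only spots of the 9600 at or below -1 on both diets. No spot was at or above 1 on both. This grouping was made after the values were seen. The mean log2 level of the 8 was 11.48 ± 0.43 in untreated mice, 11.75 ± 0.52 on flaxseed, 9.74 ± 0.49 after radiation and 10.06 ± 0.87 after both (SD, n = 5 each). Their mean radiation difference was -1.73 without flaxseed and -1.70 on flaxseed.

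The first-ranked member, gene2263, was among the brightest spots of the unirradiated lung. Its scaled signal in the 5 untreated mice was 7389, 5717, 13073.5, 4925 and 8516% of the array median. After radiation alone it was 1023, 1633, 2743, 1719 and 743%. Every irradiated mouse lay below every untreated mouse. On flaxseed the signal was 6404, 8345, 15017, 4690.1 and 12107%, and after both treatments 2566, 7562, 1119, 1008 and 2195%. Those groups overlapped, because mouse 2 of the doubly treated group exceeded 2 of the mice on flaxseed. The log2 difference was -2.35 without flaxseed and -1.95 on flaxseed.

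The second-ranked member, gene4027, was dimmer and did not overlap on either diet. Untreated mice had 3973, 3571, 5191, 2233 and 3465% of the array median, and irradiated mice 1125, 882, 1723, 1014 and 347%. Mice on flaxseed had 4253, 4731, 8367, 3446 and 6707%, and doubly treated mice 1407, 2771, 791, 401 and 1385.5%. The lowest irradiated mouse was again mouse 5 of the radiation group, and the highest doubly treated mouse was again mouse 2. The log2 difference was -1.91 without flaxseed and -2.17 on flaxseed.

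**Figure D2:**
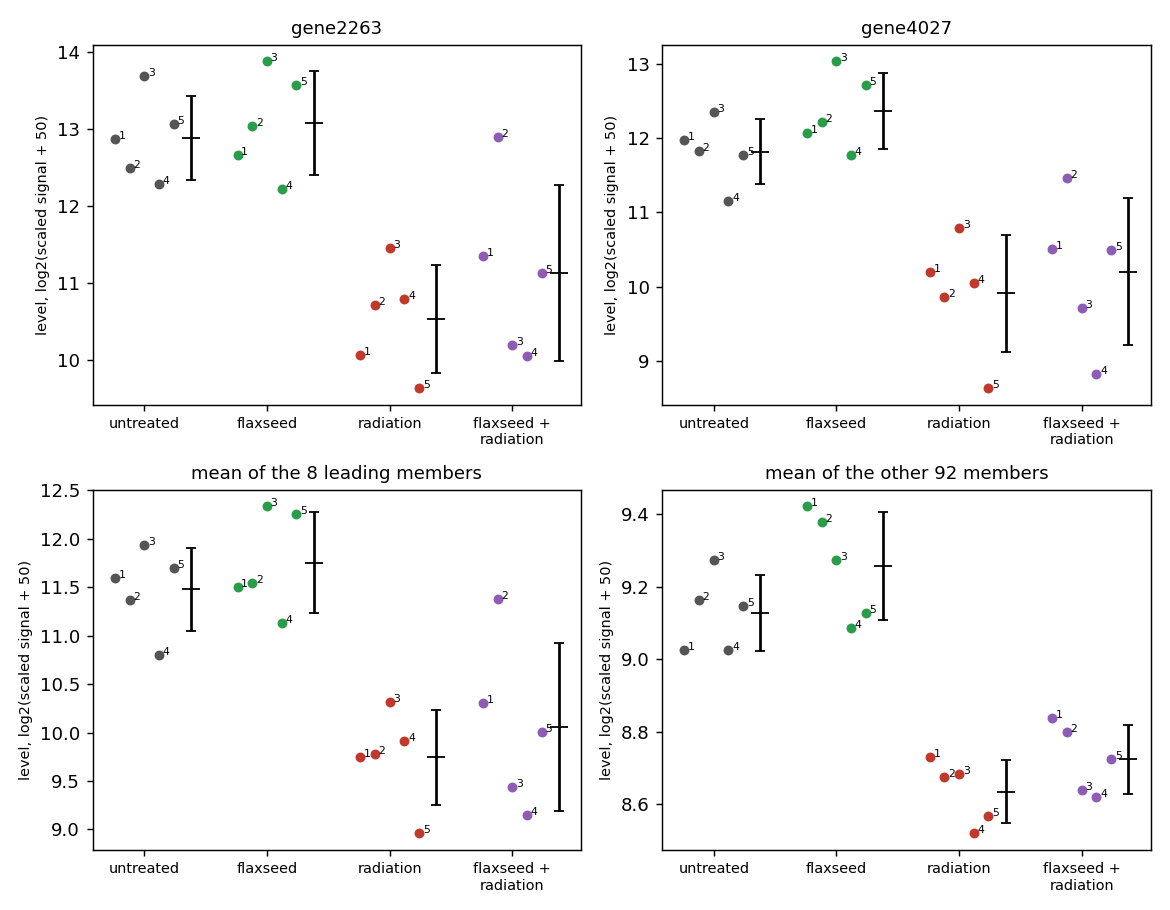
Log2 level of scaled signal plus 50 for gene2263, gene4027, the mean of the 8 leading members and the mean of the other 92 members. Each numbered point is 1 mouse, and the bar beside each group is its mean with SD (n = 5); the vertical axes do not start at 0. In the panel of the leading members, mouse 2 given both treatments, at 11.38, stands among the unirradiated mice, whereas in the panel of the other members it lies at 8.80 with its group.

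The other leading members followed these 2. Their mean scaled signals over all mice ran from 519% of the array median at rank 8 to 4787% at rank 5. Radiation differences of the 8 ran from -2.35 to -1.22 without flaxseed and from -2.17 to -1.43 on flaxseed. Without flaxseed, 7 of the 8 had every irradiated mouse below every untreated mouse, against 1.07% of all spots. The exception was the seventh-ranked member, whose untreated mouse 4 had 2441% and irradiated mouse 3 had 2443%. On flaxseed, 3 of the 8 showed no overlap, against 1.35% of all spots. The 8 were chosen on these contrasts, so nothing is read from these counts.

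Some mice lay at the same end of their group in every leading member. Mouse 2 of the doubly treated group was the highest of its group in 8 of the 8 leading members. Without it, their mean radiation difference on flaxseed was -2.03, with a range from -2.48 to -1.72, and 8 of 8 showed no overlap. Leaving out the highest irradiated mouse can only move these values that way, so they describe the weight of that mouse and support nothing else. Its array had a median subtracted signal of 111, within the 84.6 to 138 of its group, and its mean over the other 92 members was 8.80, within the 8.62 to 8.84 of its group. Mouse 5 of the radiation group was the lowest of its group in 8 of 8, and its array had the lowest median subtracted signal of that group, 91.2. Without it, the mean radiation difference of the 8 without flaxseed was -1.54 in place of -1.73. The part of array brightness in these 2 mice's values was not tested. Other mice also lay at an end of their group. Irradiated mouse 3 was the highest of its group in each of the 8, with a mean of 10.32, although its array's median subtracted signal was 93.0. Flaxseed mouse 4 was the lowest of its group in each of the 8, with a mean of 11.13. The 8 varied together, as described next, so agreement across them is not a set of separate observations. The check for outlying mice given below flagged no mouse in the mean of the 8.

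The leading members also varied together among mice of the same treatment, which the rule did not use. Across the 20 mice, after each group's mean was removed, the 28 pairs of leading members correlated at 0.79 to 0.96 with a median of 0.88. The median was 0.10 among pairs of the other 92 members, 0.15 between leading and other members, and 0.003 among pairs of all spots. The closest pair of members was gene2263 with gene2864, ranked 8, at 0.96. These correlations share the arrays and their scaling, and they describe the 20 mice without a test. The median within-group SD of the leading members was 0.63 on the log2 scale, against 0.32 for the members and 0.21 for all spots.

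The leading members were not direct neighbours on the array, but most lay in the same region. The running numbers fit a grid of 80 rows and 120 columns made of blocks of 5 by 5 spots, a layout inferred from the numbers and not stated in the files. In this grid, 7 of the 8 lay in rows 18 to 31, which hold 17.5% of all spots, and 6 of those lay in columns 73 to 105. That area, drawn after the positions were seen, holds 462 spots, 4.81% of all, and 1 further member. The part of position in the values of the leading members was not tested. The 32 spots directly beside the 8 had radiation differences from -0.29 to 0.31 without flaxseed, with a median of 0.03. On flaxseed they ran from -0.47 to 0.65 with a median of -0.05, and 0 of the 32 were members. Of these neighbours 11 were below 0 on both diets, against 24.5% of all spots, and the 4 beside the fifth-ranked member ran from -0.27 to -0.08 on flaxseed.

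The local background measured around the members moved in the same direction as their signal. Relative to the array's median background, the leading members' background differed by a median of -0.69 on the log2 scale without flaxseed and -1.46 on flaxseed. The medians were -0.16 and -0.37 for the members and -0.01 and -0.0004 for all spots. Bright spots can spread signal into their surroundings in images of radioactive arrays, and the part of this in the subtracted values was not tested. Without subtraction of the background, 83 of the 100 members and 8 of the 8 leading members were chosen again, with leading means of -1.68 and -1.74.

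The other 92 members had a smaller difference and less spread between mice. Their mean log2 level was 9.13 ± 0.11 in untreated mice, 9.26 ± 0.15 on flaxseed, 8.63 ± 0.09 after radiation and 8.72 ± 0.10 after both (SD, n = 5 each). Their median radiation difference was -0.41 without flaxseed and -0.44 on flaxseed. Among all 100 members, the irradiated mice of 78 lay wholly below the untreated mean. The doubly treated mice of 73 members lay wholly below the flaxseed mean. The rule used these contrasts, and no share over all spots is given, so nothing is read from these counts.

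Without flaxseed, 26 members had every irradiated mouse below every untreated mouse. The share over all spots was 1.07%, and the rule used this contrast, so nothing is read from the count. On flaxseed 24 members showed no overlap, against 1.35% of all spots. On both diets at once 11 members showed none, against 0.115%.

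In 6 members, all 10 irradiated mice lay below all 10 unirradiated mice, whatever the diet; over all spots the share was 0.0625%, which is the same 6. None was a leading member. They ranked 13 to 76, with mean scaled signals from 96.9 to 2101% of the array median, and their within-group SD had a median of 0.22. The leading members, with the largest differences, each had at least 1 irradiated mouse above an unirradiated mouse when the diets were pooled.

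The spot gene6080, ranked 18, had the least spread of any member, a within-group SD of 0.11, and is named after its values were seen. Untreated mice had 114, 115, 100, 125 and 130% of the array median, and irradiated mice 48.6, 54.3, 57.2, 51.9 and 60.2%. Mice on flaxseed had 186, 199, 150, 151 and 156%, and doubly treated mice 48.8, 37.8, 55.0, 50.02 and 48.4%. The mice on flaxseed all lay above the untreated mice, whereas the 2 irradiated groups overlapped. The log2 radiation differences were -0.67 without flaxseed and -1.15 on flaxseed.

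The other 5 of these members were more variable. The thirteenth-ranked member ran from 1683 to 3954% in the unirradiated mice and from 850.2 to 1678% in the irradiated mice, so the groups nearly met. The member ranked 15 ran from 442 to 729% and from 155 to 373%. The member ranked 17 ran from 103.5 to 234% and from 50.8 to 100.9%. The member ranked 76 ran from 104.5 to 158% and from 62.7 to 102.4%, and in both of these the groups nearly met. The member ranked 43, with the third-lowest spread of the 6, ran from 249.5 to 378% and from 171 to 249.4%. Its groups were separate by a margin far smaller than the spread within either.

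**Figure D3:**
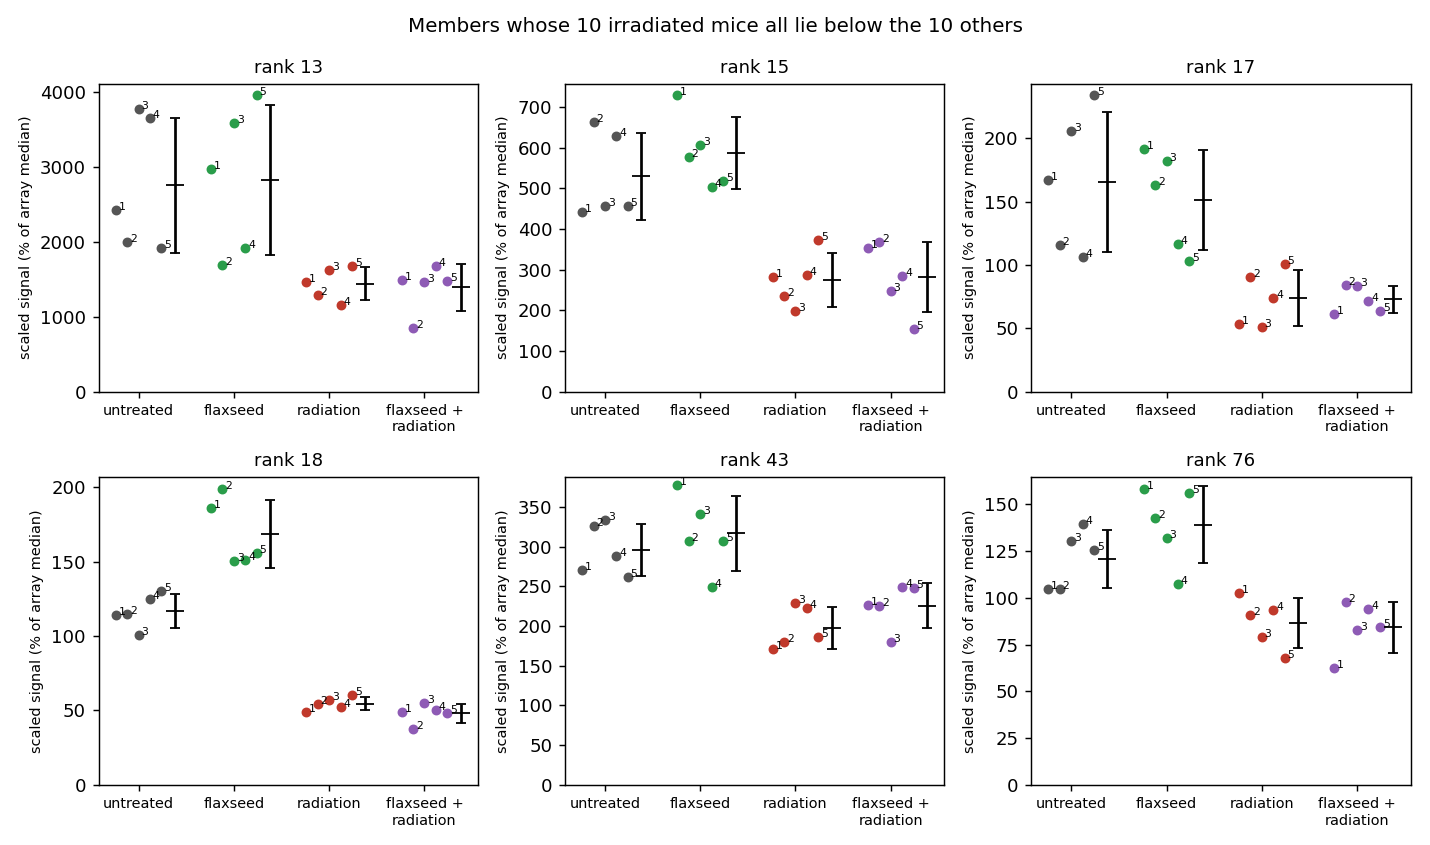
Scaled signal as a percent of the array median, on axes that start at 0, for the 6 members in which all 10 irradiated mice lie below all 10 unirradiated mice. Points are mice, numbered within the group, and bars are means with SD (n = 5). In the panel of rank 18, unirradiated mice start at 100% and irradiated mice end at 60.2%; in the panel of rank 43 the groups are separated by 249.5 against 249.4%.

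A fit across all spots describes the same contrasts on another scale. Signals were corrected by normexp, a model of background, and quantile normalised, and limma gave adjusted p-values over all 9600 spots. Without flaxseed, limma called 2 members lower at an adjusted p under 0.05, gene2313 at rank 4 and gene6080, against 0.0417% of all spots. On flaxseed it called 75 members lower, against 3.64%, and 8 of the 8 leading members were among them. Averaged over the diets, it called 84, against 2.66%. These contrasts chose the members, so the counts are descriptive.

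The count without flaxseed was unstable. Leaving out 1 mouse moved it between 1 and 11. The highest count, 11, came without untreated mouse 4, and counts of 8, 7, 6, 5 and 4 came without doubly treated mouse 2, doubly treated mouse 4, flaxseed mouse 4, irradiated mouse 3 and flaxseed mouse 3. The member count was 1 without any of 11 other mice, and 2 or 3 without the remaining ones. Over all 9600 spots, limma called 14, 10, 9, 8, 9 and 7 in the fits of the 6 mice named, in the same order. It called 2 to 5 of all spots in the other fits. On the scale that chose the members, limma called 1 member lower without flaxseed, against 0.0312% of all spots, and 44 on flaxseed, against 1.85%.

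Whether the members' difference was larger on flaxseed depended on the scale. On the scale of the rule, the median of the difference on flaxseed minus that without was -0.03, and 61 members were lower on flaxseed. Over all spots that median was 0.03, and 5365 of 9600 spots had a positive change, against 39 of the 100 members. After normexp and quantile normalisation the median radiation difference was -0.40 without flaxseed and -0.72 on flaxseed, the median of the change between diets was -0.33, and 84 members were lower on flaxseed. Over all spots the median change was then -0.008, and 4650 of 9600 spots had a positive change, against 16 of the 100 members. On the scale of the rule the members' median change turned to 0.0031 without irradiated mouse 1.

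For single members the change between diets had either sign. It is made of the 2 differences that chose the members. The counts and adjusted p-values here and in the next paragraph are therefore descriptive. Limma after normexp and quantile normalisation called 0 members for this change at an adjusted p under 0.05, against 0.115% of all spots. At an unadjusted p under 0.05, 22 members were lower on flaxseed, against 7.02% of all spots, and 0 were higher. On the scale of the rule it called 1 member, gene6080, against 2.39%. The members with the extreme changes, given next on the scale of the rule, were not called on either scale. The spot gene7686, ranked 44, had the largest change, with radiation differences of -1.17 without flaxseed and -0.39 on flaxseed. Its untreated mice had 661, 1667, 1360.0, 1267 and 2088% of the array median and its irradiated mice 608, 905, 885, 331 and 322%. Its mice on flaxseed had 1465, 1050.4, 1159, 1119 and 766%, and its doubly treated mice 962, 925, 700.1, 709 and 828%. Groups overlapped on both diets. In the limma fit after normexp and quantile normalisation its differences were -1.09 and -0.79, so its change was 0.30 in place of 0.78 (limma, adjusted p = 0.798).

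The leading member gene2915, ranked 6, was next, with -1.96 without flaxseed and -1.43 on flaxseed, a change of 0.53 that was 0.12 after normexp and quantile normalisation (limma, adjusted p = 0.945). Its doubly treated mouse 2, at 5537% of the array median, was above 3 of the 5 mice on flaxseed. In the other direction, gene1459, ranked 68, had -0.34 without flaxseed and -0.96 on flaxseed. Its mice on flaxseed ran from 388 to 783% and its doubly treated mice from 190.4 to 295%, whereas untreated mice ran from 195 to 701% and irradiated mice from 188 to 407%. Its difference without flaxseed was -0.13 without untreated mouse 3, -0.21 without irradiated mouse 5 and -0.53 without untreated mouse 5. Its change between diets was -0.63, and -0.93 after normexp and quantile normalisation (limma, adjusted p = 0.269). The spot gene2563, ranked 22, had -0.61 and -1.13, also with overlap only without flaxseed. Its change was -0.51, and -0.96 after normexp and quantile normalisation (limma, adjusted p = 0.198).

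The 2 radiation differences share no array, so each can be read on spots that the other chose. Among the 100 spots lowest without flaxseed, 52 were below 0 on flaxseed, against 47.1% of all spots, and their median there was -0.02. Among the 100 lowest on flaxseed, 82 were below 0 without flaxseed, against 49.97% of all spots, with a median of -0.29. The 2 lists, each 100 of the 9600 spots, shared 25 spots, 25% of each, and held 33 and 51 of the members. The 8 leading members were in both lists, which their choice fixed. Their highest differences were -1.22 without flaxseed and -1.43 on flaxseed, and the lists ended at -0.58 and -0.47. Members were chosen on both differences, so the counts of members in the lists describe the rule.

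Each mouse was also compared on spots chosen from the other 19 mice by the same rule. Leaving out a mouse kept 85 to 90 of the 100 members and 8 of the 8 leading members. The left-out irradiated mice had a median difference from the untreated mean of -0.51 to -0.33, and the doubly treated mice one from the flaxseed mean of -0.59 to -0.34. Left-out untreated mice were higher than the irradiated mean by a median of 0.31 to 0.58, and mice on flaxseed higher than the doubly treated mean by 0.30 to 0.65. Over all spots these medians lay between -0.04 and 0.04. In each mouse, 69 to 96 of the 100 spots lay on the side of its radiation state, against 42.7 to 54.4% of all spots. The group mean against which a mouse was read had entered the choice, so these values are not free of it.

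The members were bright spots, which the rule did not ask for. Their median scaled signal over the 20 mice was 393% of the array median, against 102.5% for all spots. Ordered by brightness, 69 members were among the 2400 brightest spots and 34 among the 960 brightest, and the next 3 sets of 2400 spots held 22, 8 and 1. Signal exceeded 2 times the local background on all arrays in 95 members, against 72.8% of all spots. None of the members had a value floored at 0, against 6.81% of all spots. The added 50 shrinks the log2 differences of dim spots, and its part in these counts was not tested.

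The brightest member, gene8859 at rank 12, had a mean of 8554% of the array median. Its untreated mice had 6528, 10603, 14811, 10405 and 11772%, and irradiated mice 6654, 7172, 9055, 2786 and 5091%. Mice on flaxseed had 9526, 9189, 17060, 7881 and 13267%, and doubly treated mice 6021, 5191, 6320.5, 3744 and 8004%. Its groups overlapped on both diets despite log2 differences of -0.86 and -0.94. The dimmest member, gene7809 at rank 91, had a mean of 37.0%, with irradiated mice from 11.7 to 29.9% and untreated mice from 25.4 to 48.4%. Its differences were -0.29 and -0.49.

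Members were spread over the length and width of the array, with 10 to 18 in each eighth of the rows and 5 to 19 in each eighth of the columns, but unevenly over the places within a block. Each of the 25 places holds 384 spots. The fourth place of the first row held 15 members and the central place held 12, 4 of them leading, whereas 4 places held none. The place with 15 members had a median scaled signal of 63.7% of the array median and the central place one of 63.7%, so these were not bright places. Only 2 pairs of members were direct neighbours in a row and 0 in a column. The sources used here do not say what the places share.

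**Figure D4:**
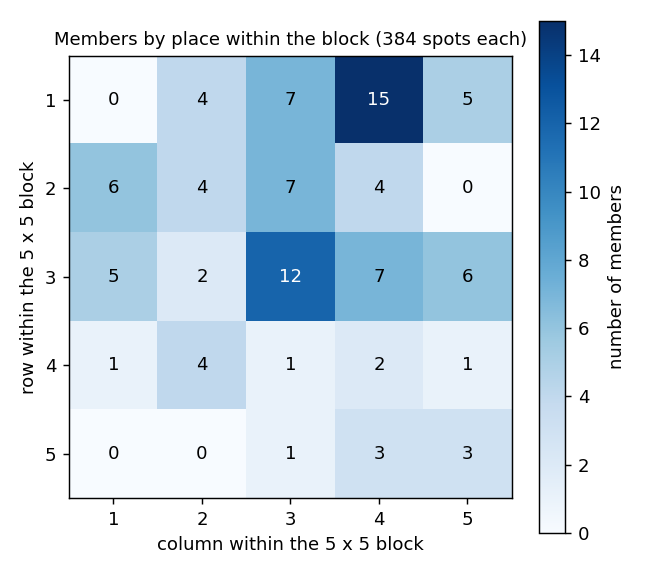
Number of members at each of the 25 places of the inferred block of 5 by 5 spots, with 384 spots at each place. The counts run from 0 to 15, and the central place holds 12.

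The diet contrast is the comparison on which the members could be tested. It averages flaxseed minus no flaxseed over both radiation states and is uncorrelated with both radiation differences when the groups vary alike. Over all spots the median within-group SD was 0.18 for untreated mice, 0.20 for mice on flaxseed, 0.18 for irradiated mice and 0.19 for those given both. For the members the medians were 0.30, 0.32, 0.26 and 0.30 in the same order. For the leading members they were 0.45, 0.54, 0.46 and 0.85, so in these 8 the groups did not vary alike. With limma after normexp and quantile normalisation, 0 members and 0% of all spots were called at an adjusted p under 0.05, and the lowest adjusted p was 0.315. At an unadjusted p under 0.05, 28 members were higher on flaxseed, against 3.55% of all spots, and 0 were lower, against 3.89%.

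The members nevertheless leaned to higher values on flaxseed as a description. On the limma scale, 82 of the 100 had a positive diet difference, against 51.1% of all spots and 48.1% of the 2400 brightest spots. The median difference was 0.16 for the members and 0.0025 for all spots. In the 8 leading members it was 0.34, and 8 of 8 were positive. Of these, 1 was higher at an unadjusted limma p under 0.05, against 3.55% of all spots. The 8 varied together among mice, so their signs are not separate observations. Without doubly treated mouse 2 the median of the 8 was 0.16, with 8 of 8 still positive. Of the 69 members among those 2400, 23 were higher at an unadjusted p under 0.05, against 4.17% of the 2400, and of the other 31 members 5 were. On the scale of the rule, 78 were positive and 13 were higher at an unadjusted p under 0.05, against 2.51% of all spots.

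**Figure D5:**
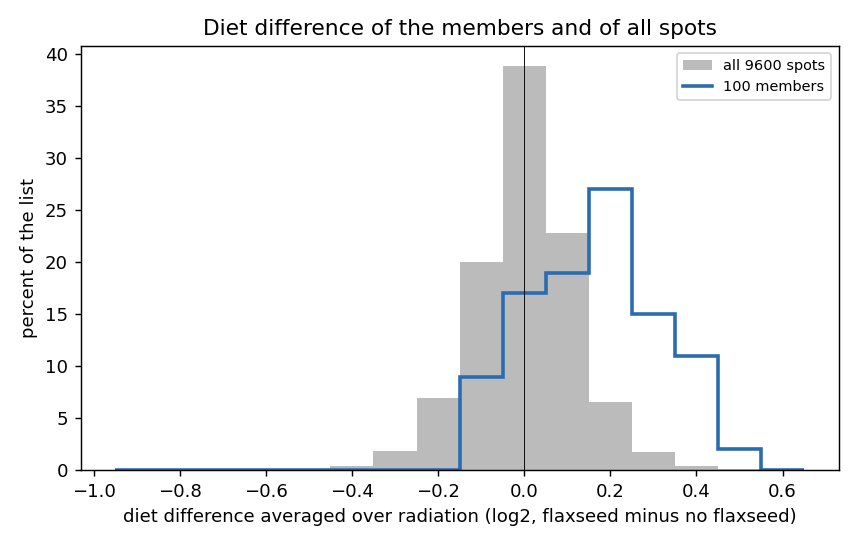
Share of the 100 members (blue outline) and of all 9600 spots (grey fill) in bins of the diet difference, in log2 units of the limma fit, averaged over both radiation states; the vertical axis is the percent of each list. Of the members, 82 lie above 0, against 51.1% of all spots.

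The member with the smallest diet p, gene7265 at rank 84, was higher on flaxseed by 0.48 ± 0.11 on the log2 scale (limma SE, adjusted p = 0.315). Its untreated mice had 208, 238, 184, 218 and 188% of the array median, and its mice on flaxseed 367, 215, 247, 357 and 349%. Irradiated mice had 178, 182, 123, 129 and 188%, and doubly treated mice 240.1, 211, 202, 225 and 285%. The irradiated groups did not overlap between the diets, and the unirradiated groups did.

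The next member, gene3936 at rank 20, was higher by 0.45 ± 0.11 (limma SE, adjusted p = 0.359). Untreated mice had 442, 506, 649.6, 409 and 438% of the array median, and mice on flaxseed 741, 633, 1004, 385 and 881%. Irradiated mice had 265, 304, 335, 304 and 269%, and doubly treated mice 380.0, 382, 342, 386 and 355%. Flaxseed mouse 4 was below the lowest untreated mouse, and the irradiated groups did not overlap between the diets. Without flaxseed mouse 4 the difference was 0.53, and limma then called this member and 1 spot that was not a member.

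Of the members lower on flaxseed, those with the smallest p were gene5227 at rank 63, with -0.10 ± 0.14 (limma SE, adjusted p = 0.910), and gene5904 at rank 64, with -0.06 ± 0.08 (adjusted p = 0.922). Both differences were smaller than their errors. Taken within each radiation state on the scale of the rule, flaxseed minus untreated had a median of 0.14 over the members, with 75 above 0 against 44.4% of all spots. Both treatments minus radiation had a median of 0.06, with 71 above 0 against 54.7%. These 2 share arrays with the differences that chose the members and were not tested.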

How the data were processed

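Per the file headers, each deposited array file holds 2 linear intensity values a spot, the median of the signal and the median of the local background. The authors' deposited table holds intensity minus background divided by the array median, with a constant 0.002 in 4.18% of its values and in 5 values of 1 member. How the images were read is not given in the sources used. The labels give each mouse's treatment, and replicates are separate mice. Members, lists and tests were chosen with earlier results of these data known. Levels are on the scale of the rule. Tests used limma 3.58.1 in R 4.3.3 (normexp, offset 50, log2, quantile; 1 coefficient per group over 20 arrays; eBayes; Benjamini-Hochberg over 9600 spots; called at adjusted p under 0.05). Member choice and fit were also run on simulated data, with noise drawn separately for each spot. The leading members varied together among mice, so those runs say nothing about them. The naming rule took, per comparison, at most 2 spots in each direction by rank or p, the brightest, the dimmest and the most correlated pair, and other spots are given by rank unless stated. The number of arrays limits precision.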

Additional observations from a re-analysis of the deposited data

Results flagged for a closer look

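Of 80 sets of 5 mice examined, 17 members and 3 means in 4 groups each, 2 held a mouse far from the other 4; chance gives about 1 in 20. The fifth-ranked member, gene4858, had a log2 level of 9.77 in irradiated mouse 5, and the nearest irradiated mouse had 11.03. The gap was 0.742 of the group's whole range. The member gene5904, ranked 64, had 7.22 in doubly treated mouse 5, and the nearest had 6.94, a gap of 0.744 of the range.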

How the results depend on the processing

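Under the alternatives run, the 8 leading members were chosen each time, and no radiation difference of a named member or list changed sign. The members chosen again numbered 62 after normexp and quantile normalisation, 61 after quantile normalisation of the scaled values and 65 with 75th percentile scaling; without 1 mouse they numbered 85 to 90. The median radiation difference on flaxseed was -0.722 and -0.720 under the first 2 of these. The median of the change between diets was 0.0031 without irradiated mouse 1, and ran from -0.0802 to 0.0031 as each mouse was left out. Members called lower without flaxseed numbered 11 with no background correction, 10 with an offset of 10, 1 with an offset of 200, 10 with 75th percentile scaling, 1 on the scale of the rule, 1 with the authors' table, 7 with a variance trend and robust fit and 9 with a filter on dim spots; as each mouse was left out they ranged from 1 to 11. Members called lower on flaxseed numbered 44 on the scale of the rule, against 178 of 9600 spots, and 44 with the authors' table, against 177. Members higher on flaxseed by diet at an unadjusted p under 0.05 numbered 17 with 75th percentile scaling, against 161 of 9600 spots. They numbered 13 on the scale of the rule, against 241, and 13 with the authors' table, against 240. As each mouse was left out, 0 to 1 members and 0 to 2 spots were called by diet; spots were called without untreated mouse 3, flaxseed mouse 4 or doubly treated mouse 5. The causes were not tested. No paired analysis was possible because replicates were numbered in accession order and the mice of different groups are not linked. Signal near background limits the dimmest members: the difference of gene7809 on flaxseed ran from -0.87 with an offset of 10 to -0.19 with an offset of 200.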
